A study of Mus musculus with 12 samples.

Results

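Presynaptic genes with YTHDF1 CLIP peaks were examined in mouse striatum: the synapsins Syn3 and Syn2, the active zone genes Cask and Erc2, the adhesion receptor gene Nrxn3 and the transmitter enzyme gene Gad1. All 6 were taken by symbol from the 2 deposited peak tables, which hold 1247 genes in all. That each occurs in at least 1 table thus follows from the choice. Syn3 and Cask were in both tables, Erc2 and Nrxn3 in the cocaine table alone, and Syn2 and Gad1 in the saline table alone. The study gave cocaine or saline to wild-type C57BL/6J mice and has 12 samples in 4 groups of 3, CLIP and input libraries of each treatment. In CLIP, RNA is crosslinked to a protein with ultraviolet light, pulled down with an antibody to that protein and sequenced. Each value is a gene's number of CLIP peaks in 1 library, for 3 cocaine and 3 saline CLIP libraries. Input libraries were not used here, and no value is corrected for the abundance of the RNA. The labels give no dose, time after treatment, age or sex, and do not say whether libraries came from separate animals or pools, and the p-values given cover only the spread among these libraries, which may be technical.

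YTHDF1 is a cytoplasmic reader of N6-methyladenosine in RNA and is known to favour the translation of its target RNAs. At a synapse, vesicles are held in reserve by synapsins, which coat the vesicle and tether it to others and to the cytoskeleton. Active zone scaffolds hold release-ready vesicles beside calcium channels, and neurexins reach across the cleft to partners on the receiving cell. Most neurons of the striatum release GABA, which is made from glutamate by glutamate decarboxylases.

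The cocaine libraries held 25528, 24770 and 24912 peaks in 1049 listed genes, and the saline libraries 3789, 3720 and 3944 peaks in 449 listed genes. The sequencing depth behind these totals is unknown, and more peaks can be called in a deeper library, so raw numbers of peaks cannot be told apart from depth. Every gene of a table had 1 peak or more in all of its libraries and a mean above 6 peaks in cocaine or above 1 in saline. A gene with a saline mean of 6 or less could be in both tables only with a higher mean in cocaine. These cutoffs thus favour higher raw numbers in cocaine among the shared genes. A gene that is not listed may have had peaks below these cutoffs, and was never set to 0. The labels name striatal neurons. Of 10 marker genes of striatal projection neurons, 0 were in either table, beside 3.34% of all coding genes. Of the other markers, 1 of 6 for oligodendrocytes, 2 of 5 for microglia, 1 of 4 for vascular cells, 1 of 5 for cortical excitatory neurons and 0 of 5 for astrocytes were listed, so peak lists of this kind did not allow the labelled cell type to be checked. Libraries are called 1 to 3 by the order of the columns, which carry no replicate number, and a cocaine and a saline library of the same number are not a pair.

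Syn3 carried far more peaks than the other presynaptic genes. It had 155, 147 and 131 peaks in the cocaine libraries, against 51, 27 and 40 peaks in the saline libraries. Every cocaine library lay above every saline library. Of the 251 genes in both tables, 77.7% showed the same separation. Syn3 ranked 20 of 1049 genes by mean peaks in cocaine and 7 of 449 in saline. Syn3 averaged 144.3 ± 12.2 peaks over the cocaine libraries and 39.3 ± 12 peaks over the saline libraries (SD, n = 3 each), a ratio of 3.67. Among the shared genes the median ratio was 4.54 (interquartile range 3.0 to 6.63), and 36.3% of them had a ratio below that of Syn3. For the difference in Syn3 peaks p was 0.1 by an exact 2-sided permutation test, and 3 libraries against 3 cannot give a smaller p. In edgeR's quasi-likelihood test with equal library sizes, the number of Syn3 peaks was higher in cocaine by 1.87 on the log2 scale (SE 0.24, adjusted p = 7.52e-06). This test called 87.1% of the 202 genes tested higher in cocaine, so the call does not set Syn3 apart.

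**Figure D1:**
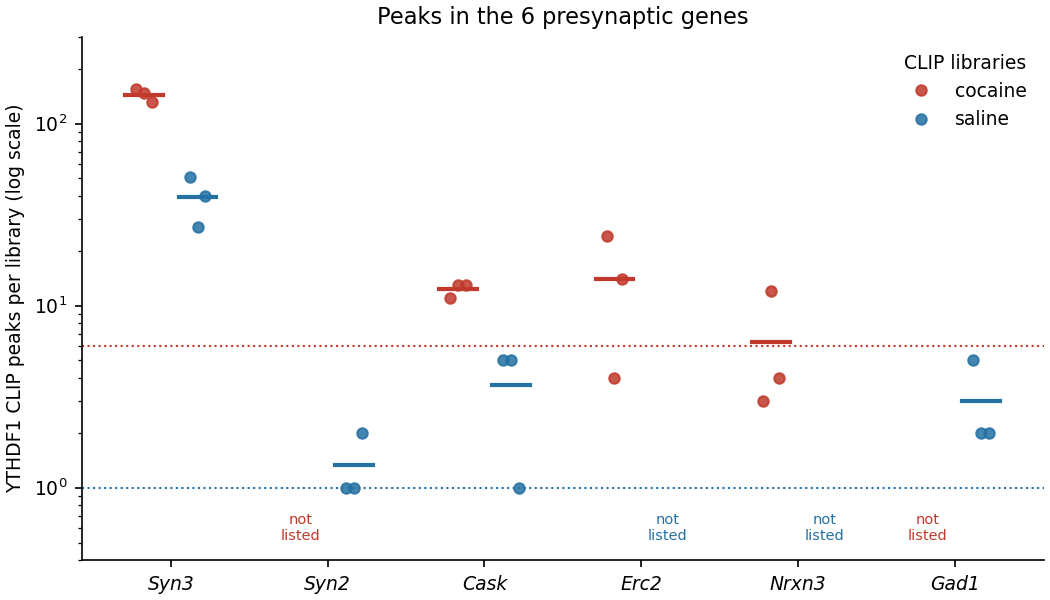
Number of YTHDF1 CLIP peaks in each library (vertical axis, log scale) for the 6 presynaptic genes, with cocaine libraries in red on the left and saline libraries in blue on the right of each gene. Points are libraries, bars are means of 3 libraries, and the dotted lines mark the cutoffs on the mean of 6 (cocaine table) and 1 (saline table). Syn3 lies above the other genes in both treatments, and 4 genes are missing from 1 of the tables.

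The share of peaks removes the difference in totals, but it depends on what the totals hold. They include a gene without a symbol that averaged 1645 peaks in cocaine and 825.3 in saline, the most of any shared gene. Its peaks affect the share of every other gene, including Syn3 and Cask, and shares without it were not computed. Syn3 held 1.11, 1.07 and 0.941% of the peaks of shared genes in the cocaine libraries, against 1.57, 0.850 and 1.18% in the saline libraries. The groups overlapped, because saline library 2 lay below every cocaine library. The mean share was 1.04 ± 0.0899% in cocaine and 1.20 ± 0.359% in saline (SD, n = 3 each; exact 2-sided permutation test, p = 0.6). In edgeR, on totals scaled by TMM factors, Syn3 differed by -0.43 on the log2 scale (SE 0.22, adjusted p = 0.182) and was not called. Without scaling factors the difference was -0.22 (SE 0.23, edgeR adjusted p = 0.513), so part of -0.43 comes from the factors. Of the 202 tested genes, 10.4% were called higher and 17.8% lower in cocaine.

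The outcome for Syn3 depended on the total it was set against. Against all listed peaks, Syn3 held 0.607, 0.593 and 0.526% in the cocaine libraries and 1.35, 0.726 and 1.01% in the saline libraries. Here every cocaine library lay below every saline library, as it did for 27.9% of shared genes. With these totals edgeR gave a log2 difference of -0.84 (SE 0.23, adjusted p = 0.0105) and called 23.3% of tested genes lower. The totals follow the tables' unequal cutoffs.

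Syn3 spans 450.2 kb on chromosome 10 from 86048746 to 86498926 (RefSeq annotation of GRCm38.p6, the assembly named mm10). It hosts Timp3, which encodes a tissue inhibitor of metalloproteinases and lies wholly within Syn3 from 86300412 to 86349505, covering 10.9% of its span. As background, Timp3 sits in an intron of Syn3 and is transcribed from the opposite strand. Fbxo7, which encodes a substrate-binding subunit of a ubiquitin ligase, overlaps one end of Syn3 by 3128 bases. The lncRNA genes Gm51812, 4930486F22Rik and Gm35636 also lie within Syn3 and were in neither table under these symbols. The tables give no position, strand or sequence of a peak, so a peak counted for Syn3 cannot be placed along the gene or given to a strand, and how peaks were assigned to genes is not given in the sources used here.

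**Figure D2:**
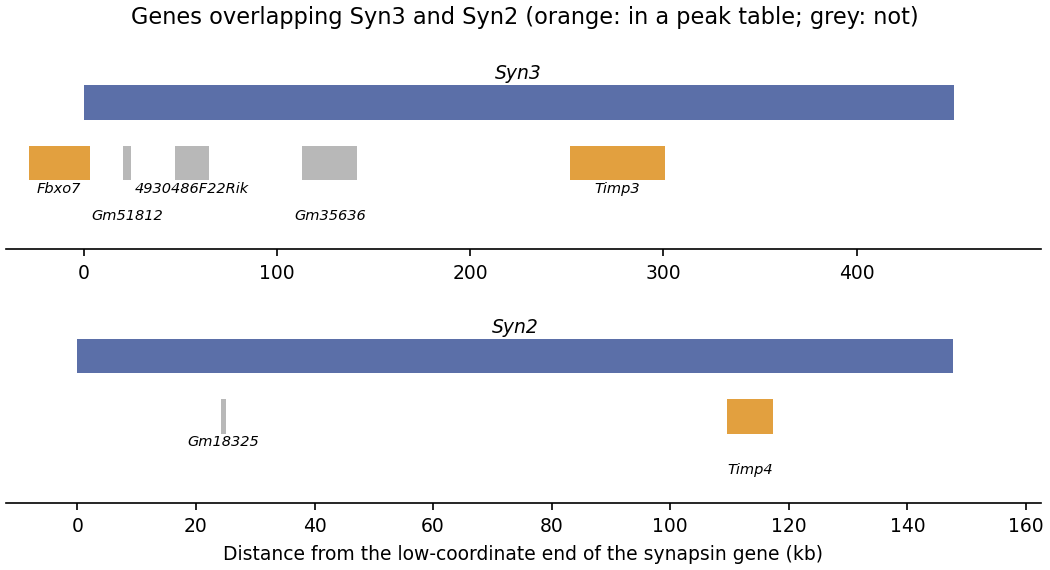
Maps of Syn3 (upper panel) and Syn2 (lower panel), drawn to scale as distance in kb from the low-coordinate end of each gene, with all overlapping annotated genes beneath. Orange marks overlapping genes that are in a peak table and grey those that are not. Timp3 lies within Syn3 and Timp4 within Syn2, and Fbxo7 overlaps one end of Syn3.

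Timp3 was itself listed in both treatments. It had 40, 55 and 73 peaks in the cocaine libraries, against 7, 2 and 18 peaks in the saline libraries. The groups did not overlap, as in 77.7% of shared genes. Within cocaine, the library with most Syn3 peaks had fewest Timp3 peaks, and the library with fewest Syn3 peaks had most Timp3 peaks. Timp3 therefore took 20.5, 27.2 and 35.8% of the peaks given to the 2 genes in the cocaine libraries, and 12.1, 6.90 and 31.0% in the saline libraries. Added together, Syn3 and Timp3 had 195, 202 and 204 peaks in the cocaine libraries and 58, 29 and 58 in the saline libraries. The sum varied less between cocaine libraries (coefficient of variation 2.36%) than Syn3 (8.47%) or Timp3 (29.5%) alone. This did not hold in saline, where the coefficient of variation was 34.6% for the sum, 30.5% for Syn3 and 90.9% for Timp3. With 3 libraries in a treatment no test of this pattern was made.

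**Figure D3:**
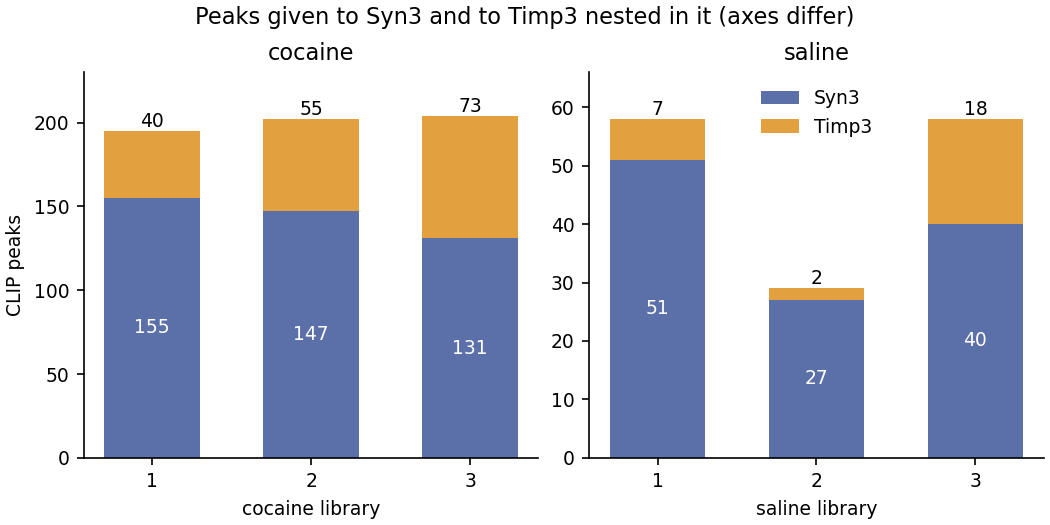
CLIP peaks given to Syn3 (blue) and to Timp3 nested in it (orange), stacked for each cocaine library (left) and each saline library (right), with the number of peaks on each bar. Vertical axes count peaks from 0 and differ between the panels. The stacked totals lie between 195 and 204 in cocaine and are 58, 29 and 58 in saline.

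The ratio of mean peaks between treatments was 6.22 for Timp3 and 3.67 for Syn3. By share, Timp3 had a log2 difference of 0.34 (SE 0.51, edgeR adjusted p = 0.707), which was not called. Its raw number of peaks was higher in cocaine by 2.62 on the log2 scale (SE 0.51, edgeR adjusted p = 0.000258). With 1 library left out the difference ran from 2.15 to 3.6. It was largest without saline library 3, the highest saline library of Timp3. With all libraries the test called 87.1% of tested genes higher. With Timp3 peaks added to Syn3, a counting chosen after seeing the data, the difference in share of the sum was -0.26 on the log2 scale (SE 0.22, edgeR adjusted p = 0.436). Fbxo7 had 7, 9 and 11 peaks in the cocaine libraries and was not in the saline table.

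Syn2, which encodes a synapsin abundant in adult nerve terminals, was at the low edge of the saline table. It had 1, 1 and 2 peaks in the saline libraries (mean 1.33 ± 0.577, SD, n = 3), the lowest mean in the saline table, which 30 genes share. It was not in the cocaine table. Among the 29 other saline genes with the same mean as Syn2, 3 were also in the cocaine table (10.3%), so its absence there is shared by most genes at its level. Syn2 spans 147.7 kb on chromosome 6 from 115134902 to 115282626.

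The metalloproteinase inhibitor gene nested in Syn2 had the opposite listing. Timp4, on the minus strand from 115244444 to 115252205 within the plus-strand Syn2, was in the cocaine table alone, with 2, 6 and 17 peaks in the cocaine libraries (mean 8.33 ± 7.77, SD, n = 3). Cocaine library 3 was the highest for Timp4, as it was for Timp3. No comparison between treatments is possible for Syn2 or Timp4, since each has values in 1 treatment only. Syn1, the remaining synapsin gene, was in neither table.

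Cask encodes a membrane-associated guanylate kinase scaffold that binds the tails of neurexins. It had 11, 13 and 13 peaks in the cocaine libraries, against 5, 5 and 1 peaks in the saline libraries. The groups did not overlap, as in 77.7% of shared genes, and the cocaine libraries were close to each other. The coefficient of variation of Cask was 9.36% in cocaine, lower than in all but 7.91% of listed cocaine genes, and 63.0% in saline. Cask averaged 12.3 ± 1.15 peaks over the cocaine libraries and 3.67 ± 2.31 over the saline libraries (SD, n = 3 each), a ratio of 3.36, and 32.3% of shared genes had a lower ratio. Here too p was 0.1 by an exact 2-sided permutation test.

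Cask did not pass the filter on low counts, so its tests come from a fit of all 251 shared genes without that filter. There its raw number of peaks was higher in cocaine by 1.72 on the log2 scale (SE 0.52, edgeR adjusted p = 0.00737). This fit called 84.1% of genes higher. With a saline mean of 3.67, Cask could be in both tables only with a cocaine mean above 6. The cutoffs thus fixed the direction of this difference, and the test does not bear on it. Cask held 0.0791, 0.0945 and 0.0934% of the peaks of shared genes in the cocaine libraries, and 0.154, 0.157 and 0.0295% in the saline libraries. Saline library 3 thus lay below all cocaine libraries and the other saline libraries above them. The log2 difference in share was -0.46 (SE 0.56, edgeR adjusted p = 0.660), where 8.37% of genes were called higher and 11.6% lower. This value was -0.90 without saline library 3, -0.15 without saline library 2 and -0.19 without saline library 1, and none of these passed the test. Cask lies on chromosome X from 13517080 to 13846783, a span of 329.7 kb. The receptor genes Gpr34 and Gpr82 and the lncRNA Gm34836 lie within it, and none of them was in either table.

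**Figure D4:**
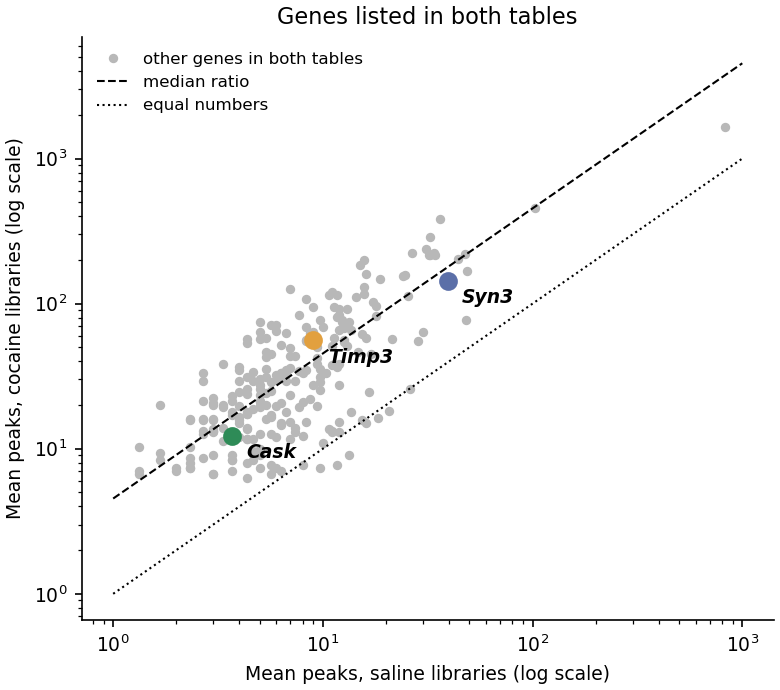
Mean number of peaks in the 3 cocaine libraries (vertical axis) against the mean in the 3 saline libraries (horizontal axis), both on log scales, for the 251 genes in both tables. The dashed line is the median ratio of 4.54 and the dotted line marks equal numbers. Syn3 (ratio 3.67) and Cask (3.36) lie a little under the dashed line and Timp3 (6.22) above it.

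Erc2 encodes a coiled-coil scaffold of the active zone. It had 24, 4 and 14 peaks in the cocaine libraries (mean 14 ± 10, SD, n = 3) and was not in the saline table. The libraries disagreed widely: its coefficient of variation of 71.4% was above that of 90.5% of listed cocaine genes, where 38.2% was the median among the 293 other genes with a mean within 25% of that of Erc2. Of those 293 genes, 51 were also in the saline table (17.4%). Leaving out library 2 moved Erc2 to rank 313 of the cocaine table and leaving out library 1 to rank 723, against 458 with all libraries. Erc2 lies on chromosome 14 from 27622275 to 28478537, a span of 856.3 kb. The pseudogene Gm18398 and the lncRNA genes Gm45645, Gm34996 and Gm52097 lie within it, and none was listed.

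Nrxn3 encodes a neurexin, a presynaptic adhesion receptor. It had 3, 12 and 4 peaks in the cocaine libraries (mean 6.33 ± 4.93, SD, n = 3), and library 2 held most of them. This mean is the lowest in the cocaine table, which 50 genes share, and without library 2 Nrxn3 would fall under the cutoff of 6. It was not in the saline table, where 18 of the 201 other cocaine genes with a mean within 25% of its own were found (8.96%). Nrxn3 is the longest of the 6 genes, spanning 1612.2 kb on chromosome 12 from 88722701 to 90334935. The only annotated gene that overlaps it is the lncRNA Gm40537, on the other strand, which was not listed.

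Gad1 encodes a glutamate decarboxylase, the enzyme that makes GABA. It had 5, 2 and 2 peaks in the saline libraries (mean 3.0 ± 1.73, SD, n = 3) and was not in the cocaine table. Of the 118 other saline genes with a mean within 25% of that of Gad1, 42 were in the cocaine table (35.6%). Gad1 is the shortest of the 6 genes, at 40.7 kb on chromosome 2 from 70561303 to 70602014. The antisense lncRNA Gad1os overlaps its first 2055 bases and was not listed.

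Levels were compared between genes per 100 kb of gene span. In cocaine, Syn3 had 32.1 ± 2.71 peaks per 100 kb, Cask 3.74 ± 0.35, Erc2 1.64 ± 1.17 and Nrxn3 0.393 ± 0.306 (SD, n = 3 each). In this order Syn3 and Cask did not overlap in any library, nor did Cask and Erc2, whose highest library had 2.80 against a lowest of 3.34 for Cask. Erc2 and Nrxn3 overlapped. In saline, Syn3 had 8.74 ± 2.67 peaks per 100 kb, Gad1 7.37 ± 4.25, Cask 1.11 ± 0.700 and Syn2 0.903 ± 0.391. Syn3 and Gad1 overlapped between libraries, as did Cask and Syn2, while the lowest Gad1 library (4.91) lay above the highest Cask library (1.52). By number of peaks, Gad1 and Cask overlapped in saline, and Gad1 had the lower mean (3.0 against 3.67). Cask and Erc2 likewise overlapped in cocaine, with means of 12.3 and 14 peaks. Their separation per 100 kb thus comes from the division by span.

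The place of a gene by this density among all listed coding genes follows largely from its span, since span and number of peaks were hardly related among them (Spearman's rho across genes 0.042 in cocaine, n = 565, and -0.032 in saline, n = 292; each point is a gene of the same 3 libraries). A long gene is thus placed low unless it has many peaks, and the values below are a description only. The median was 28.0 peaks per 100 kb over 565 listed coding genes in cocaine and 3.76 over 292 in saline. The density of Syn3 exceeded that of 53.8% of them in cocaine and 70.2% in saline. That of Cask exceeded 14.5% in cocaine and 26.0% in saline, that of Erc2 7.96% in cocaine, and that of Syn2 21.2% and Gad1 65.8% in saline. No listed coding gene of the cocaine table had a lower density than Nrxn3. The nested Timp3 had 114.1 ± 33.7 peaks per 100 kb in cocaine and 18.3 ± 16.7 in saline (SD, n = 3 each), above the mean of its host Syn3 in both. In saline the libraries of the 2 genes overlapped.

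Long genes were listed more often than short ones, and 5 of the 6 presynaptic genes are long. The listed coding genes had a median span of 49.9 kb in cocaine and 100.6 kb in saline, against 17.1 kb over all coding genes of the annotation. Of all 21900 coding genes, 3.34% were in either table. This share was 22.8% among the 557 coding genes longer than 300 kb and 46.9% among the 98 longer than 800 kb.

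Of 79 presynaptic genes in a list drawn up by role, 78 were found by symbol in the annotation and 8 were in a peak table. They are the 6 genes above, which were taken from the listed genes, together with Chat and Amph. The numbers of listed presynaptic genes thus partly follow from that choice. Chat, which encodes the enzyme that makes acetylcholine and marks the cholinergic interneurons of the striatum, had 13, 10 and 5 peaks in the cocaine libraries and was not in the saline table. The vesicular acetylcholine transporter gene Slc18a3 lies within Chat and was not listed. Amph, which encodes amphiphysin, a protein of vesicle endocytosis, had 1, 5 and 1 peaks in the saline libraries and was not in the cocaine table. In all, 5 of the 79 were in the cocaine table, 5 in the saline table and 2 in both, beside 2.58%, 1.33% and 0.575% of all coding genes.

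By role, 2 of 3 synapsins, 2 of 19 active zone genes, 1 of 6 presynaptic adhesion genes, 1 of 8 endocytosis genes and 2 of 13 genes of transmitter synthesis and transport were listed. Of 14 genes of the fusion machinery, such as Snap25 and Stx1a, and of 16 other vesicle protein genes, such as Syt1 and Syp, 0 were listed. Over all coding genes 3.34% were listed, so an absence from so few genes does not set these roles apart. Among presynaptic genes longer than 300 kb, 4 of 14 were listed (28.6%), beside 22.8% of all coding genes of that length. These 4 (Nrxn3, Erc2, Syn3 and Cask) were taken because they are listed, so the shares cannot be compared as a result. The longest gene of the list, Ptprd (2270.5 kb), was in neither table. A list of 44 glutamate receptor and postsynaptic scaffold genes had 9 listed members, 20.5% against 10.1% of the presynaptic list. The difference was not tested, and the lists were not matched for gene span. Its only gene in both tables was the scaffold gene Dlgap1, with 5, 9 and 11 peaks in the cocaine libraries and 2, 2 and 1 in the saline libraries. The groups did not overlap, as in 77.7% of shared genes. With a saline mean of 1.67, Dlgap1 could be in both tables only with a higher mean in cocaine, so the cutoffs fixed this direction.

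**Figure D5:**
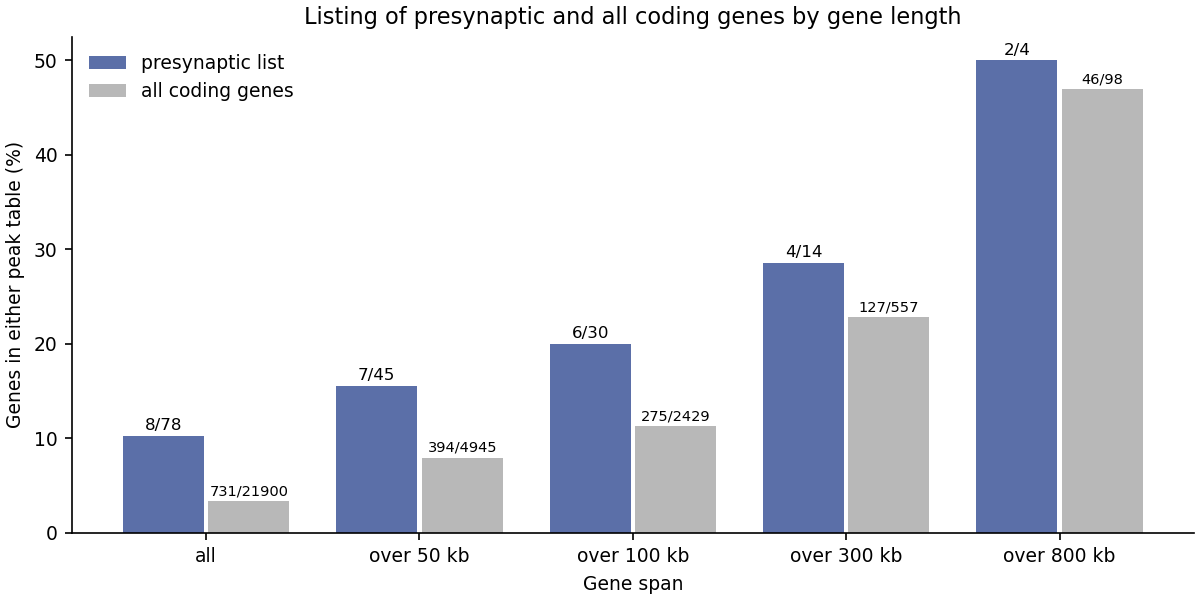
Percent of genes found in either peak table (vertical axis), for the presynaptic list (blue) and all coding genes (grey), over all genes and over genes above 50, 100, 300 and 800 kb of span. Fractions give the number listed over the number of genes, and each class includes the next. The share listed is larger among longer genes in both, at 50% and 46.9% above 800 kb. Most listed presynaptic genes were taken from the peak tables, so the blue bars partly follow from that choice.

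The shared genes nearest to Syn3 in their 6 library values, by Euclidean distance of log2(peaks + 0.5), were Wdr17 (distance 0.930), the non-coding 9630028H03Rik (1.14) and the potassium channel gene Kcnq1 (1.18). Wdr17 had 145, 190 and 166 peaks in the cocaine libraries and 49, 42 and 55 in the saline libraries. Nearest to Cask were Vps13b (1.14), Dock1 (1.30) and Adgrv1 (1.39). Vps13b had 10, 18 and 10 peaks in the cocaine libraries and 5, 8 and 2 in the saline libraries. All these genes were picked by the same 6 values, so a likeness in any library follows from the choice. These distances describe 6 libraries and were not tested.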

How the data were processed

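Per the file headers and values, the authors deposited counts of CLIP peaks (whole numbers, 1 value for each gene and library) in 1 table of 3 libraries for each treatment. The deposited mean of the 3 columns was used only to check them. Per the submitters' processing notes, cutadapt, STAR and mm10 were used. The table names point to CLIPper, whose version and threshold, like the assignment of peaks to genes, are not given in the sources used. Tables were assigned to a treatment by the letter c or s in their names. Genes repeated under several symbols were counted once.

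edgeR 4.0.16 in R 4.3.3 was run on the 251 shared genes (quasi-likelihood test, filterByExpr, 202 genes tested, Benjamini-Hochberg adjustment over all tested genes, FDR 0.05). Shares used TMM factors (common biological coefficient of variation 22.1%), and raw numbers used equal library sizes. The fits were tested on simulated data. Alternatives were DESeq2 1.42.0, no filter, RLE or no factors, totals of all listed genes and each library left out. Gene spans and overlaps came from the RefSeq annotation of GRCm38.p6. Python 3.11.15, pandas 2.3.3, NumPy 2.4.6, SciPy 1.17.1 and Matplotlib 3.10.9 were used. The named genes are the 6 genes, genes overlapping them, listed genes of the presynaptic list, and the 3 shared genes nearest to Syn3 and to Cask; Dlgap1 and the unlisted examples were chosen after their values were seen. The genes and lists were chosen with earlier results of these data known. Depth is known only as peaks, and 3 libraries in a treatment limit the precision.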

Additional observations from a re-analysis of the deposited data

How the results depend on the processing

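Of 143 values recomputed under alternatives, 128 kept their direction and their side of the threshold or stayed within the spread between libraries. The share of Syn3 was not called under DESeq2, no filter, RLE factors, no scaling factors, Timp3 peaks added to it or any left-out library (log2 differences of -0.64 to -0.14 with a library left out, adjusted p 0.0957 to 0.780), and was called lower with the totals of all listed genes (-0.84). The share of Timp3 was never called, and its direction turned with those totals (-0.065), without cocaine library 3 (-0.046) and without saline library 2 (-0.046), and it was 1.41 without saline library 3. The higher raw numbers of Syn3 and Cask kept their calls with each library left out (1.66 to 2.10 and 1.28 to 2.0), as they did under DESeq2 (1.88 and 1.75). For Cask the cutoffs on the mean fixed this direction. The share of Cask was not called in fits without the filter (log2 differences of -0.90 to -0.15 with a library left out), an alternative added after seeing the data. The number of shared genes with a higher share, 21 in the planned fit, was 4 with totals of all listed genes, while that with a lower share was 47 against 36. With 1 library left out the numbers were 6 to 21 higher and 17 to 28 lower. Ranks by peaks of Syn3 ran from 17 to 21 in cocaine and from 6 to 11 in saline with a library left out. Those of Cask ran from 511 to 554 and from 172 to 269, and those of Erc2 from 313 to 723. Nrxn3 ran from 798 to 1040, Gad1 from 229 to 337 and Syn2 from 385 to 434. Peaks per 100 kb ran from 1.05 to 2.22 for Erc2 and from 0.217 to 0.496 for Nrxn3. The cause of these changes was not tested. No paired analysis was possible because the table columns carry no replicate numbers. Exonic length in place of gene span was not run, since exon lengths were not used here.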
